A study of Saccharomyces cerevisiae with 6 samples.

Results

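The yeast reading frames described here are those whose systematic names carry the suffix -A, a mark given to genes that were added to the annotation after the first numbering of the chromosomes. They were picked out by the pattern of their names. Of the 6277 genes listed in the deposited table, 305 matched the pattern of a chromosome arm, a number, a strand letter and -A. The rule left out 15 named genes, 14 of them listed, and 291 frames remained. RefSeq's R64 annotation held 176 of the 291 frames, 113 of them with a gene symbol and 63 without, and the other 115 frames were not in it. The frames in RefSeq were short, with a median exonic length of 258 bases and a range from 78 to 1593.

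The study compared RNA from 3 strains of Saccharomyces cerevisiae, with 2 independently selected clones (replicates 1 and 2) of each, 6 libraries in all. Every strain was of the BY4741/4743 background, was deleted for RRP6 and MTR4 on the chromosomes, and carried MTR4 on the plasmids pRS416 and pRS415. A pRS413 plasmid supplied WT RRP6 in the strain called WT, the exonuclease-inactive RRP6 D238N allele in the strain called Rrp6 exo-, and no insert in rrp6Δ, so the WT strain is itself a plasmid-rescued deletion. Ribosome-depleted total RNA was sequenced from cells in mid-log phase in selective medium, and the values are scaled counts, that is, the reads on a gene divided by 1 size factor per library. The libraries held between 34188755 and 39501874 reads on listed genes, of which the 291 frames took between 0.504% and 0.565%. RRP6 itself gave 19503 and 21626 scaled counts in the WT libraries, 18538 and 21173 in the Rrp6 exo- libraries and 4.17 and 8.33 in the rrp6Δ libraries, which separates rrp6Δ from the other strains as labelled and cannot tell WT from Rrp6 exo-. In bulk RNA, fewer cells that transcribe a frame and less RNA per cell cannot be told apart.

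Rrp6 is the nuclear exonuclease of the RNA exosome and trims or degrades RNA from the 3′ end. In budding yeast, the RNA-binding proteins Nrd1 and Nab3 recognise short motifs in nascent transcripts, stop RNA polymerase II on many noncoding and antisense units, and pass the released RNA to the TRAMP polyadenylation complex and the exosome. Frames with -A names are of mixed kinds. Some encode small conserved proteins such as ribosomal, mitochondrial and cell wall proteins, and others are open frames in noncoding or antisense RNA with no known product.

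The frames in RefSeq that were higher in a mutant by at least 2-fold, when clones of the same number were paired in the fit (below), numbered 7 with at least 180 bases. Their first 180 bases were searched for the letters of the Nab3 site (TCTT) and the Nrd1 sites (GTAA and GTAG). The sequences of 4 are shown 5′ to 3′ on the strand of the frame, from the RefSeq R64 genome, with these letters in capitals. Of the 4, NAG1, ECM12 and YGR121W-A were higher in both mutants, and the reads of YKL183C-A came mainly from rrp6Δ. AUA1, YMR001C-A and YOR032W-A were searched too and are not shown. NAG1 lies at chrVII:547121-547300 (minus strand), ECM12 at chrVIII:149225-149404 (plus), YGR121W-A at chrVII:733412-733591 (plus) and YKL183C-A at chrXI:98428-98607 (minus).
NAG1: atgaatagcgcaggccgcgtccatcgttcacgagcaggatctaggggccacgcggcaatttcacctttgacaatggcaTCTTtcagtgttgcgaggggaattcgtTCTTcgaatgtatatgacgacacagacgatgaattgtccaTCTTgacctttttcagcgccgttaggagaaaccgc
ECM12: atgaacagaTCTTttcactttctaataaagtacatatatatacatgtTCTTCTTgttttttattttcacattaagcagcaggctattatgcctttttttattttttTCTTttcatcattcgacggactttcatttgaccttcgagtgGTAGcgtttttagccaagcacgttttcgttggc
YGR121W-A: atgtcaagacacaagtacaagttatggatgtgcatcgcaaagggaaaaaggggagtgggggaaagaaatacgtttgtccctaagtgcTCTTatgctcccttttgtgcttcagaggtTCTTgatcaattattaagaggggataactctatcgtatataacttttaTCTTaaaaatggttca
YKL183C-A: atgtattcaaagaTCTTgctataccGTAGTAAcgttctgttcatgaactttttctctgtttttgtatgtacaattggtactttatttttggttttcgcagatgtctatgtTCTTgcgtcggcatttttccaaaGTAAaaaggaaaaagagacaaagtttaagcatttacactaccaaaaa
TCTT stood on the sense strand in 7 of the 7 windows, compared with 54.6% of 5701 listed protein-coding genes and 66.0% of the 159 frames in RefSeq with a window of that length. The mean number per window was 3.14 in the 7 frames, 1.16 in the 159 frames and 0.825 over all genes. On the opposite strand TCTT was in 3 of the 7 windows, in 76.7% of the 159 frames and in 82.9% of all genes. GTAA or GTAG was in 4 of the 7 on the sense strand, compared with 62.9% of the 159 frames and 61.4% of all genes. On the opposite strand it was in 4 of the 7, compared with 73.6% and 75.7%. The 7 frames were chosen by their values, and the shares are a description. These are matches of letters, which overlap each other in places such as GTAGTAA, and binding of Nab3 or Nrd1 was not measured.

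Levels differed widely among the frames. The median of the mean scaled count over the 6 libraries was 56.3, compared with 1801 over all listed genes, and 73 of the 291 frames had a mean under 10. The 113 frames with a symbol had a median of 288 scaled counts, the 63 without a symbol 16.9, and the 115 not in RefSeq 13.4. Per kilobase of exon, CWP2 was the highest at 172324 scaled counts, followed by RPL34A at 53138 and CCW14 at 33134. CWP2 and CCW14 encode mannoproteins bound covalently in the cell wall, and RPL34A encodes a protein of the large ribosomal subunit. RPL36B (29557 scaled counts per kb), SPO24 (27216) and the cell wall protein gene NCW1 (12170) came next. RPL34A and RPL36B share 92.6% and 89.4% of aligned bases with RPL34B and RPL36A, so their counts depend on how reads of these copies were assigned. Of the 176 frames in RefSeq, 12 had such a copy, and the other 115 had no sequence to search.

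The comparison of each mutant with WT asks which of these RNAs depend on Rrp6 and on its catalytic activity. Log2 fold changes are differences of means of log2(scaled count + 1), a scale that understates the change of low frames. With limma, the strain as the only term and Benjamini-Hochberg adjustment over all 6277 genes, 0 of the 291 frames passed an adjusted p of 0.05 in rrp6Δ, where 0.175% of all genes did, and 0 in Rrp6 exo-, where 0.112% of all genes did. At an unadjusted p under 0.05 there were 58 frames in rrp6Δ and 54 in Rrp6 exo-, compared with 16.6% and 17% of all genes. The lowest limma adjusted p was that of YHL019W-A, at 0.076 in rrp6Δ and 0.056 in Rrp6 exo-. Clones with the same number deviated together in every pair of strains, so a fit that takes the number as a blocking factor was made too. With the block, limma called 30 frames in rrp6Δ (25 higher and 5 lower) and 29 in Rrp6 exo- (24 higher and 5 lower), compared with 11.5% and 12.7% of all genes. By direction, the higher calls were 8.59% of the frames in rrp6Δ and 8.25% in Rrp6 exo-, where all genes gave 5.43% and 5.7%, and the lower calls were 5 of 291 in each mutant, where all genes gave 6.04% and 7.04%. DESeq2 without the block called 17 frames in rrp6Δ (13 higher) and 15 in Rrp6 exo- (13 higher), compared with 8.03% and 8.28% of all genes (3.11% and 3.09% higher). edgeR called 0 frames in either mutant without the block, where 0.175% and 0.0956% of all genes passed, and 30 and 26 with it (11.4% and 12.7% of all genes). By size alone, 51 frames were at least 2-fold higher in rrp6Δ and 42 in Rrp6 exo- (3.28% and 3.06% of all genes), and 0 and 5 were at least 2-fold lower (0.382% and 0.685%). The libraries of mutant and WT did not overlap, with the mutant higher, in 120 frames in rrp6Δ and 95 in Rrp6 exo- (25.1% and 21.7% of all genes), and with the mutant lower in 27 and 40 (24.9% and 23.5%). Below, "rose" and "fell" refer to the limma fit with the block unless another tool is named.

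Higher values gathered in the frames that RefSeq does not hold. Of the 34 frames that rose in at least 1 mutant (8.35% of all genes did), 20 were not in RefSeq, 7 were in it without a symbol and 7 had a symbol. Of the 115 frames not in RefSeq, 11.3% rose in rrp6Δ and 15.7% in Rrp6 exo-. These shares were close to the 12.1% and 14.1% of the 340 other listed genes with systematic names that RefSeq lacks. The median log2 fold change of all 291 frames was 0.22 in rrp6Δ and 0.15 in Rrp6 exo-, while the median of all genes was 0.01 in each. Over the 115 frames not in RefSeq it was 0.56 and 0.52, and over the 113 with a symbol it was 0.05 and -0.03. All 4 mutant libraries lay above both WT libraries in 46 of the 115 frames not in RefSeq (40.0%) and in 12 of the 113 with a symbol (10.6%), compared with 13.7% of all genes. The low level of the frames moved with this pattern. Frames with a mean scaled count under 50 had medians of 0.58 in rrp6Δ and 0.50 in Rrp6 exo-, and all listed genes under 50 had 0.39 and 0.39, where the mean takes in the mutant libraries. The 340 other listed genes with systematic names that RefSeq does not hold had medians of 0.45 and 0.49, so such a shift was also seen outside the -A names. The part of level and annotation in the shift was not tested.

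**Figure D1:**
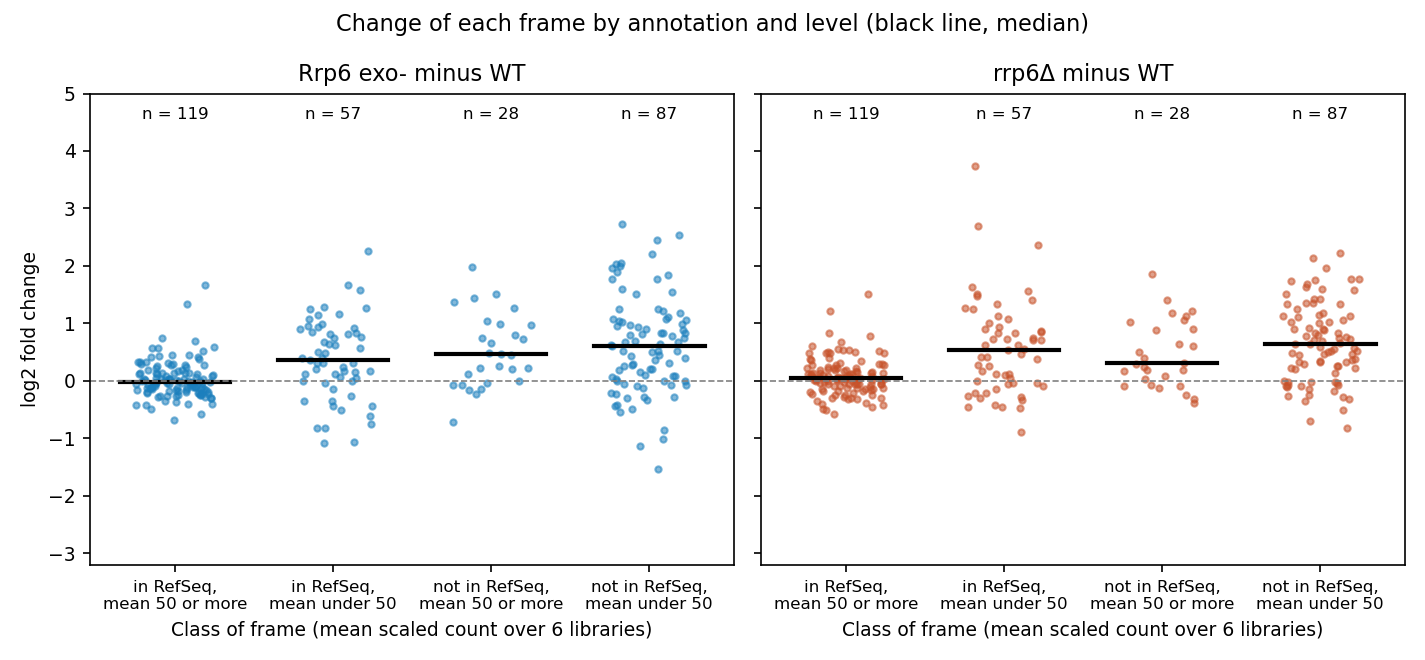
Each point is the log2 fold change of 1 frame between a mutant and WT (left, Rrp6 exo- minus WT; right, rrp6Δ minus WT), grouped by presence in RefSeq and by the mean scaled count over the 6 libraries; black lines are medians. The median was 0.05 in rrp6Δ and -0.03 in Rrp6 exo- for the 119 frames in RefSeq with a mean of at least 50, and 0.64 and 0.61 for the 87 frames not in RefSeq with a mean under 50.

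A set of 15 frames rose in both mutants (5.15% of the 291, compared with 2.79% of all genes). Both comparisons use the same 2 WT libraries. Of the 15, 11 were not in RefSeq, and in 11 the gene with the same number lies on the opposite strand by its name. Of all 291 frames, 115 were not in RefSeq, and 175 had the gene with the same number on the opposite strand. The 15 were YHL019W-A, YDL086C-A, YOR072W-A, YFR010W-A, YER158W-A, YMR306C-A, YIR017W-A, YHR069C-A, YHR071C-A, YER066C-A and YCR081C-A, which RefSeq lacks, and NAG1, ECM12, YGR121W-A and YCL021W-A, which it holds. YDL086C-A, YIR017W-A, YHR069C-A, YHR071C-A, YER066C-A, YCR081C-A, ECM12 and YCL021W-A were named after their values were seen.

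YHL019W-A, numbered with APM2, a gene for a clathrin adaptor-like protein on the opposite strand, gave 129 and 132 scaled counts in the WT libraries, 414 and 652 in the Rrp6 exo- libraries and 450.2 and 498 in the rrp6Δ libraries. All 4 mutant libraries stood more than 3-fold above both WT libraries. Its log2 fold change was 1.99 in Rrp6 exo- (SE 0.24, limma adjusted p = 0.056, and 0.0013 with the block) and 1.85 in rrp6Δ (SE 0.24, limma adjusted p = 0.076, and 0.0026 with the block). DESeq2 gave adjusted p = 5.1e-10 and 3.0e-08. APM2 itself gave 799 and 845 scaled counts in the WT libraries, 788 and 704 in the Rrp6 exo- libraries and 610 and 828 in the rrp6Δ libraries, and was not called (limma with the block, adjusted p = 0.53 and 0.36). The frame thus moved and the gene numbered with it was not called.

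YDL086C-A gave 76.6 and 75.9 scaled counts in the WT libraries, 208 and 208 in the Rrp6 exo- libraries and 177 and 161 in the rrp6Δ libraries. The replicates of each strain lay close together and the groups were far apart. The log2 fold changes were 1.43 and 1.14 (SE 0.17 each, limma adjusted p with the block 0.0036 and 0.0096). YDL086W, on the opposite strand, fell in rrp6Δ (log2 fold change -0.39, limma adjusted p with the block 0.024) and had -0.22 in Rrp6 exo- (0.089). YOR072W-A gave 55.0 and 46.8 in the WT libraries, 117 and 132 in the Rrp6 exo- libraries and 143 and 129 in the rrp6Δ libraries, with log2 fold changes of 1.27 and 1.40 (SE 0.20 each, limma adjusted p with the block 0.012 and 0.0096). YFR010W-A, numbered with the ubiquitin protease gene UBP6 on the same strand, gave 15.7 and 12.5 in the WT libraries, 55.4 and 59.2 in the Rrp6 exo- libraries and 41.7 and 53.7 in the rrp6Δ libraries. Its WT libraries were the lowest by a wide margin, and the log2 fold changes were 1.96 and 1.69 (SE 0.27 each, limma adjusted p with the block 0.0097 and 0.019). YMR306C-A, opposite the glucan synthase gene FKS3 by its name, gave 70.7 and 43.7 in the WT libraries, 172 and 150 in the Rrp6 exo- libraries and 163 and 106 in the rrp6Δ libraries. In each strain its replicate 1 was the higher, and the log2 fold changes were 1.51 and 1.22 (SE 0.33 each, limma adjusted p with the block 0.0062 and 0.016). YER158W-A gave 20.6 and 26.0 in the WT libraries, 61.2 and 49.9 in the Rrp6 exo- libraries and 75.03 and 54.6 in the rrp6Δ libraries, with log2 fold changes of 1.22 and 1.43.

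**Figure D2:**
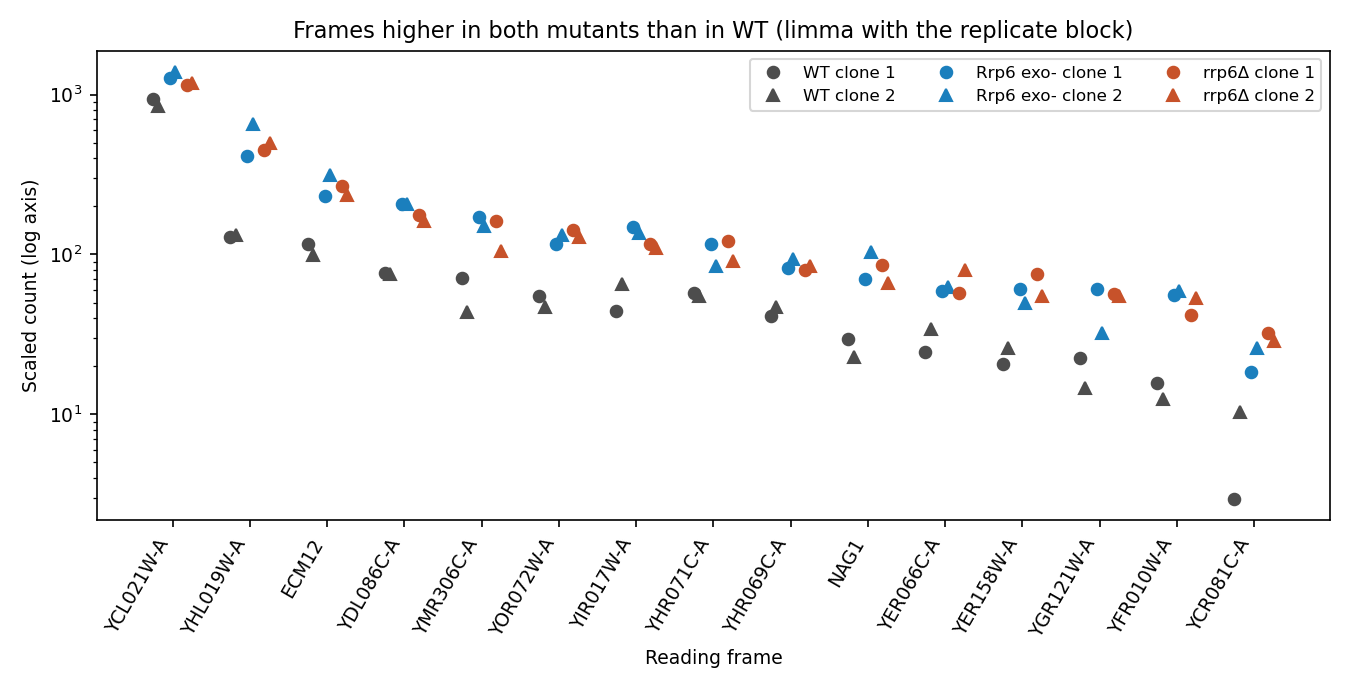
Scaled counts in each library (vertical axis, log scale) of the 15 frames that rose in both mutants in the limma fit with the replicate block, ordered by mean level; circles are replicate 1 and triangles replicate 2. In every frame the 4 mutant libraries lie above both WT libraries, as for YHL019W-A at 129 and 132 in WT and 414 to 652 in the mutants.

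Among the frames that RefSeq holds, NAG1 (YGR031C-A, chrVII:546809-547300, minus strand) lies wholly within IMO32 on the opposite strand and encodes a protein linked to the cell wall. It gave 29.5 and 22.9 scaled counts in the WT libraries, 69.9 and 103 in the Rrp6 exo- libraries and 85.5 and 66.7 in the rrp6Δ libraries, from 22 to 99 reads. Its log2 fold changes were 1.67 in Rrp6 exo- and 1.504 in rrp6Δ (SE 0.30 each, limma adjusted p with the block 0.015 and 0.023). IMO32 was at 1266 and 1249 scaled counts in WT and between 1392 and 1614 in the mutants, and was not called (limma adjusted p with the block 0.098 and 0.22). The library kit was stranded, while the strand setting of the counting is not given in the sources used here, so how reads of the 2 overlapping genes were assigned cannot be told. ECM12 (YHR021W-A, chrVIII:149225-149680, plus strand), which overlaps YHR022C on the opposite strand over 23.2% of its length, gave 116 and 98.8 in the WT libraries, 232 and 316 in the Rrp6 exo- libraries and 267 and 236 in the rrp6Δ libraries. Its mutant libraries were all at least 2 times the WT libraries, with log2 fold changes of 1.33 and 1.22 (SE 0.22 each, limma adjusted p with the block 0.0098 and 0.015). YGR121W-A (chrVII:733412-733627, plus strand), numbered with the ammonium permease gene MEP1 on the opposite strand, overlaps no gene in RefSeq. It gave 22.6 and 14.6 in the WT libraries, 61.2 and 32.2 in the Rrp6 exo- libraries and 56.3 and 54.6 in the rrp6Δ libraries, and the log2 fold changes were 1.25 and 1.56 (SE 0.39 each, limma adjusted p with the block 0.038 and 0.023). The best-covered of the 15 was YCL021W-A, at 940.0 and 851 in the WT libraries, 1269.7 and 1382 in the Rrp6 exo- libraries and 1140.1 and 1177 in the rrp6Δ libraries, with the smallest rises of the set, 0.57 and 0.37 on the log2 scale.

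YIR017W-A, opposite the sulfur-metabolism regulator gene MET28 by its name, gave 44.2 and 65.5 scaled counts in the WT libraries and between 110.2 and 148 in the mutants. YHR069C-A, numbered with RRP4, the gene of an exosome cap subunit on the same strand, gave 41.3 and 46.8 in WT and between 80.2 and 93.5 in the mutants, with log2 fold changes of 0.98 in Rrp6 exo- and 0.90 in rrp6Δ. YCR081C-A, opposite the Mediator subunit gene SRB8, had the largest rise of the 15 in rrp6Δ, 2.23 on the log2 scale (SE 0.55, limma adjusted p with the block 0.028), from 2.95 and 10.4 in WT to 32.3 and 28.7. It had the fewest reads and the largest SE of the set. Frames that RefSeq places over another gene on the opposite strand, NAG1 and ECM12 among them, numbered 11, and in 7 of them all 4 mutant libraries lay above both WT libraries. The 10 frames that RefSeq places within 25 kb of a chromosome end also had 7 of this kind. Both shares, 63.6% and 70.0%, stand beside 13.7% of all genes. The 115 frames that RefSeq lacks could not be placed, so neither set can include them. Of the 11, 3 rose in each mutant, and of the 10, 1 rose in rrp6Δ and 0 in Rrp6 exo-. All genes gave 5.43% and 5.7%. The 10 had a median level of 11.8 scaled counts, and 32.6% of the 144 frames with a mean under 50 had the same pattern.

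Other frames rose in 1 mutant and did not pass in the other. In Rrp6 exo- there were 9 such frames of 291, compared with 2.92% of all genes, which is near the same share, 7 of them not in RefSeq, and all 9 also had a positive log2 fold change in rrp6Δ. YAL059C-A gave 24.6 and 9.36 scaled counts in the WT libraries, 66.1 and 65.4 in the Rrp6 exo- libraries and 45.9 and 25.9 in the rrp6Δ libraries. It rose in Rrp6 exo- (log2 fold change 2.04, SE 0.51, limma adjusted p with the block 0.015) and had 1.13 in rrp6Δ (0.078). YML012C-A gave 27.5 and 10.4 in the WT libraries, 44.7 and 57.1 in the Rrp6 exo- libraries and 52.1 and 38.0 in the rrp6Δ libraries, so the mutants overlapped each other, and it rose in Rrp6 exo- (log2 fold change 1.52, limma adjusted p with the block 0.048). Without WT replicate 2 its value was 0.85. YML094C-A, opposite the prefoldin gene GIM5 by its name, gave 13.7 and 3.12 in the WT libraries, 40.8 and 47.8 in the Rrp6 exo- libraries and 21.9 and 23.1 in the rrp6Δ libraries, and its log2 fold changes were 2.53 (SE 0.61, limma adjusted p with the block 0.025) and 1.59 (0.087). The most abundant of the 9 was YBR085C-A, at 1982 and 3067 in WT and 2713 and 3545 in Rrp6 exo-, which rose by 0.33 on the log2 scale (limma adjusted p with the block 0.049) while its groups overlapped. AUA1, known for a role in nitrogen regulation of an amino acid permease, was counted at under 22 in all libraries. In rrp6Δ there were 10 such frames, where all genes gave 2.64%, and 7 of them had a positive value in Rrp6 exo-. SFT1, a SNARE of the Golgi, was one of the 7, at 279.9 and 235 in the WT libraries, 330.3 and 369.8 in the Rrp6 exo- libraries and 407 and 411 in the rrp6Δ libraries, where it rose by 0.67 on the log2 scale (SE 0.16, limma adjusted p with the block 0.030). Its strains did not overlap, and the value in Rrp6 exo- was 0.44 (0.076). The other 3 were YKL183C-A, YMR001C-A and MBF1. YML094C-A, YBR085C-A, AUA1, SFT1 and YKL183C-A were named after their values were seen.

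YKL183C-A (chrXI:98395-98607, minus strand), numbered with LOT5 on the opposite strand, had 0 and 5 reads in the WT libraries, 1 and 0 in the Rrp6 exo- libraries and 33 and 33 in the rrp6Δ libraries. No library outside the deletion held more than 5 reads (limma adjusted p with the block 0.037 against WT), and no fold is given because the other strains were near 0. Without the block its adjusted p was 0.16, and DESeq2 gave 0.10. LOT5 fell in both mutants (log2 fold changes -0.44 in Rrp6 exo- and -0.47 in rrp6Δ, limma adjusted p with the block 0.037 and 0.034). YMR001C-A (chrXIII:271347-271577, minus strand), numbered with the Polo kinase gene CDC5 on the same strand, gave 18.7 and 33.3 scaled counts in the WT libraries, 30.1 and 19.7 in the Rrp6 exo- libraries and 65.7 and 69.5 in the rrp6Δ libraries. WT and Rrp6 exo- overlapped and rrp6Δ lay above both, with a log2 fold change against WT of 1.40 (SE 0.37, limma adjusted p with the block 0.047), and of -0.03 for Rrp6 exo-. The difference between the mutants was 1.43 on the log2 scale for YMR001C-A, and it passed for neither frame (limma adjusted p with the block 0.11 for YKL183C-A and 0.16 for YMR001C-A, DESeq2 0.15 and 0.32).

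CWP2, CCW14 and NCW1, which encode cell wall proteins, fell in rrp6Δ, while 9 of the 17 frames on the list of the secretory pathway, membranes and cell wall had a positive log2 fold change there. CWP2 (YKL096W-A, chrXI:259253-259531, plus strand) gave 55984 and 51495 scaled counts in the WT libraries, 52261 and 51769 in the Rrp6 exo- libraries and 39058 and 37902 in the rrp6Δ libraries. The WT and Rrp6 exo- libraries overlapped, and both rrp6Δ libraries lay below all others. Its log2 fold change was -0.48 in rrp6Δ (SE 0.08, limma adjusted p = 0.11, and 0.021 with the block) and -0.05 in Rrp6 exo- (0.75 with the block). CCW14 (YLR390W-A, chrXII:903724-904440, plus strand) gave 25846 and 26668 in the WT libraries, 24253 and 26177 in the Rrp6 exo- libraries and 20836 and 18762 in the rrp6Δ libraries, with log2 fold changes of -0.41 (SE 0.09, limma adjusted p with the block 0.030) and -0.06 (0.67). NCW1 (YMR122W-A, chrXIII:511315-511569, plus strand) gave 3289.6 and 3904 in the WT libraries, 2867 and 3405 in the Rrp6 exo- libraries and 2056 and 3098 in the rrp6Δ libraries. Replicate 2 was the higher in every strain, and the log2 fold change in rrp6Δ was -0.51 (SE 0.22, limma adjusted p = 0.32, and 0.023 with the block, while DESeq2 gave 0.23). Without rrp6Δ replicate 1 it was -0.21, and without rrp6Δ replicate 2 it was -0.80. Scaled to the same total, CCW14 in rrp6Δ was -0.25. The difference between the 2 mutants was -0.43 for CWP2, which passed with DESeq2 alone (adjusted p = 0.00011, and 0.12 in limma with the block), -0.35 for CCW14 (DESeq2 adjusted p = 0.057) and -0.31 for NCW1.

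**Figure D3:**
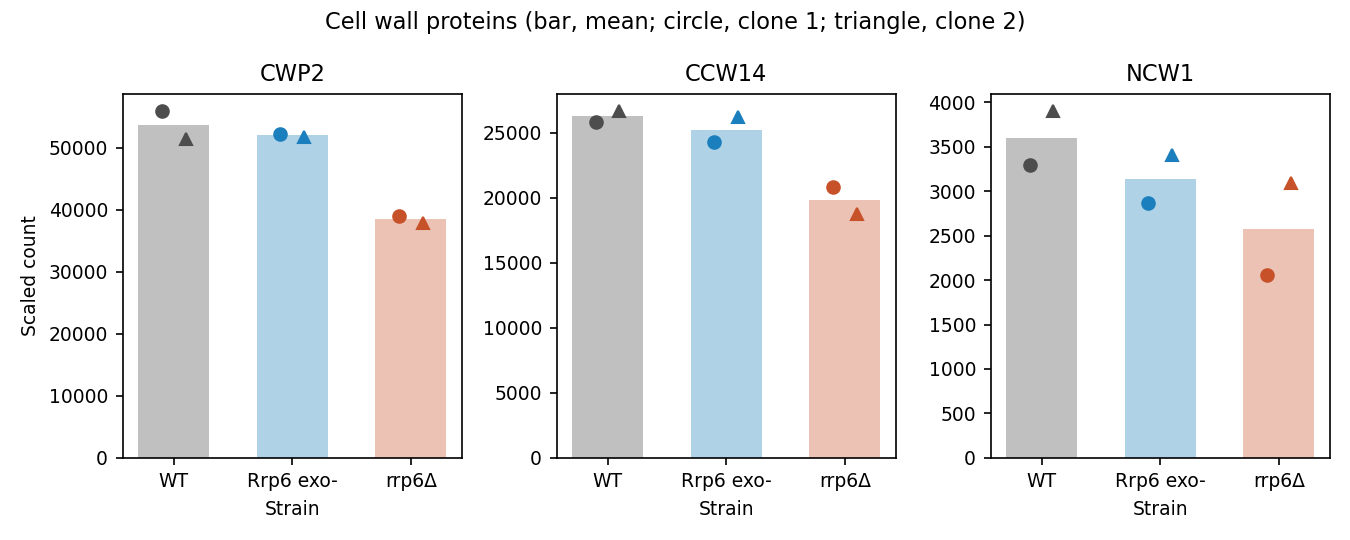
Scaled counts of CWP2, CCW14 and NCW1 in the 3 strains; bars are means of 2 libraries, circles replicate 1 and triangles replicate 2, on axes that start at 0. The rrp6Δ libraries of CWP2, at 39058 and 37902, lie below the 4 others, which range from 51495 to 55984.

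RPL36B and LSB3 fell in both mutants (2 of 291, or 0.687%, compared with 3.84% of all genes). RPL36B (YPL249C-A, chrXVI:75699-76239, minus strand) encodes a protein of the large ribosomal subunit and carries the number of GYP5, which encodes a GTPase-activating protein of vesicle transport and lies upstream on the same strand. RPL36B gave 10581 and 10423 scaled counts in the WT libraries, 7716 and 7961 in the Rrp6 exo- libraries and 8827 and 8228 in the rrp6Δ libraries, and the strains did not overlap. Its log2 fold changes were -0.42 and -0.30 (SE 0.08 each, limma adjusted p with the block 0.014 and 0.035). GYP5 gave 2027 and 2118 in the WT libraries, 428 and 477 in the Rrp6 exo- libraries and 345 and 479 in the rrp6Δ libraries, and fell without the block too (limma adjusted p = 0.040 and 0.023). LSB3 (YFR024C-A, chrVI:201960-203433, minus strand), an SH3 protein of the actin cytoskeleton, gave 4407 and 4488 in the WT libraries, 3164 and 3184 in the Rrp6 exo- libraries and 3691 and 3437 in the rrp6Δ libraries. Its replicates were tight and its log2 fold changes were -0.49 and -0.32 (SE 0.08 each, limma adjusted p with the block 0.0096 and 0.032). Scaled to the same total, the values in rrp6Δ shrank to -0.15 for RPL36B and -0.17 for LSB3. Both genes have an intron. All 4 mutant libraries lay below both WT libraries in 7 of the 23 frames with an intron (30.4%), compared with 16.3% of all genes and 30.8% of the 247 other listed protein-coding genes with an intron.

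**Figure D4:**
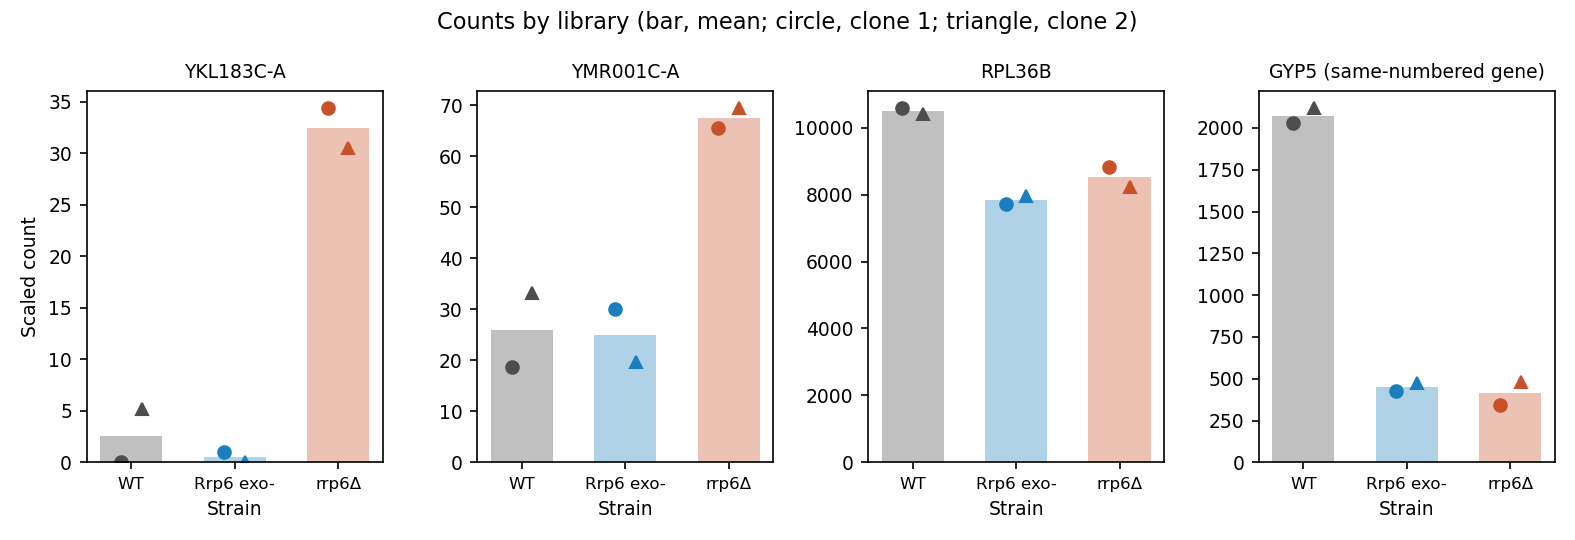
Scaled counts of YKL183C-A, YMR001C-A, RPL36B and the gene GYP5 in the 3 strains; bars are means of 2 libraries, circles replicate 1 and triangles replicate 2, each panel with its own axis from 0. YKL183C-A and YMR001C-A stand out in rrp6Δ, and RPL36B and GYP5 are highest in WT.

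Of the 113 frames with a symbol, limma with the block called 9.73% in rrp6Δ and 6.19% in Rrp6 exo-, compared with 11.5% and 12.7% of all genes. In the list of genes for the cytosolic ribosome and translation, 8 of 9 were among the 291 frames, and 2 rose and 1 fell in rrp6Δ while 0 rose and 1 fell in Rrp6 exo- (medians 0.23 and -0.04). Of all genes, 5.43% rose and 6.04% fell in rrp6Δ, and 5.7% and 7.04% in Rrp6 exo-. The risers were EFG1, required for maturation of the small-subunit rRNA, and MBF1, a coactivator that also guards the reading frame on stalled ribosomes. EFG1 gave 1578 and 1481 scaled counts in the WT libraries, 2032 and 1655 in the Rrp6 exo- libraries and 2311 and 2060.4 in the rrp6Δ libraries (log2 fold change 0.51 in rrp6Δ, limma adjusted p with the block 0.015). MBF1 gave 4389 and 4384 in the WT libraries, 4052 and 4592 in the Rrp6 exo- libraries and 5382 and 5409.8 in the rrp6Δ libraries (0.30, limma adjusted p with the block 0.043). RPL34A overlapped between rrp6Δ and WT, and RPL41B, whose RPL41A copy is nearly identical, ranged from 72.8 to 187 scaled counts with replicates further apart than the strains. MBF1 was named after its values were seen.

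None of the 24 mitochondrial frames was called by limma with the block in either mutant (medians -0.01 in rrp6Δ and -0.06 in Rrp6 exo-), where 11.5% and 12.7% of all genes were. At an unadjusted limma p under 0.05 there were 3 in rrp6Δ and 2 in Rrp6 exo-, shares below the 16.6% and 17% of all genes, and DESeq2 called 0. RIM1, a single-stranded DNA-binding protein of mitochondria, gave 1817 and 1799 scaled counts in the WT libraries, 1599.9 and 1366 in the Rrp6 exo- libraries and 1521 and 1435 in the rrp6Δ libraries. Its mutant libraries were below both WT libraries, yet it missed the threshold (log2 fold change -0.29 in each mutant, limma adjusted p with the block 0.063 and 0.067). TOM5, of the outer-membrane translocase, had -0.57 in rrp6Δ (limma adjusted p with the block 0.0503), RCF3, of the respiratory chain, had 0.55, and MRPL15, of the mitochondrial ribosome, had 0.00. Of the 17 frames of the secretory pathway, membranes and cell wall, 3 fell in rrp6Δ (6.04% of all genes), CWP2, CCW14 and NCW1, and 0 were called in Rrp6 exo- (12.7% of all genes), with medians of 0.03 and -0.04. None of the 20 nuclear frames was called by limma with the block or by DESeq2, with medians of 0.18 in rrp6Δ and 0.09 in Rrp6 exo- and with 3 and 0 at an unadjusted limma p under 0.05 (16.6% and 17% of all genes). SEM1, of the proteasome lid and of mRNA export, had 0.39 in rrp6Δ, DAD4, of the kinetochore DASH complex, had -0.06, TFB5, of the transcription factor TFIIH, had 0.75, and the ubiquitin-like HUB1 had 0.55. The 4 frames for stress and cell state, SPO24, IGO2, DDR2 and HUG1, gave 0 calls by limma with the block or by DESeq2 and 0 at an unadjusted limma p under 0.05, with values of 0.06, 0.03, 0.13 and 0.06 in rrp6Δ.

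The direct comparison of rrp6Δ with Rrp6 exo- asks what the Rrp6 protein does apart from its catalysis. limma called 0 of the 291 frames (0.0159% of all genes) and 0 with the block (0.0319%), 11 had an unadjusted p under 0.05 (5.46% of all genes), edgeR called 0 with or without the block, and DESeq2 called 1, CWP2 (0.717% of all genes). The median log2 difference was 0.06, with the middle 50% of the frames between -0.18 and 0.23. Apart from CWP2 in DESeq2, the frames that passed in 1 mutant and not in the other were therefore not shown to differ between the mutants.

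Genes that share a number with a frame had median changes near 0. For the 175 frames with the same-numbered gene on the opposite strand, the median log2 fold change in rrp6Δ was 0.25 for the frames and -0.03 for the genes (Pearson r = -0.03 and Spearman rho = 0.01 across frames, given as a description, since the values come from the same 6 libraries). For the 105 with the gene on the same strand, the medians were 0.19 and -0.08 (r = 0.13, rho = 0.21). In Rrp6 exo- the correlations were -0.01 and 0.21. Of the 33 same-numbered genes of the 34 risers, 26 were not called in rrp6Δ, 3 were higher and 4 lower. There 5.43% of all genes were higher and 6.04% lower. In Rrp6 exo-, 31 were not called, 1 was higher and 1 lower, where all genes gave 5.7% and 7.04%.

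Some frames differed more between replicates than between strains. YFR052C-A, opposite the proteasome subunit gene RPN12 by its name, gave 517 and 2623 scaled counts in the WT libraries, 406 and 1239 in the Rrp6 exo- libraries and 437 and 1807 in the rrp6Δ libraries. Replicate 2 was the higher in every strain, and all strains overlapped. Its log2 fold change in Rrp6 exo- was -0.71 (SE 1.03, limma adjusted p = 0.79, and 0.032 with the block), so the call rests on the pairing. COX26, of cytochrome c oxidase, gave 33.4 and 119 in the WT libraries, 45.7 and 104 in the Rrp6 exo- libraries and 35.4 and 147 in the rrp6Δ libraries. In COX26 the strains overlapped throughout. Replicate 2 was at least 2-fold above replicate 1 in all 3 strains in 4 of the 291 frames (1.37%), compared with 1.42% of all genes. EGO4, a vacuolar membrane protein of the TORC1 pathway on the secretory list, gave 99.2 and 315 in the WT libraries, 127 and 248 in the Rrp6 exo- libraries and 145 and 426 in the rrp6Δ libraries. SCS22, an endoplasmic reticulum protein of lipid metabolism, gave 305 and 349 in the WT libraries, 208 and 229 in the Rrp6 exo- libraries and 223 and 279 in the rrp6Δ libraries, so that Rrp6 exo- lay below WT without overlap, and fell there (log2 fold change -0.58, limma adjusted p with the block 0.033). YFR052C-A, COX26 and HUG1 were named after their values were seen.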

How the data were processed

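The 6 libraries were ribosome-depleted, stranded and read in pairs. The authors aligned the reads to sacCer3 and counted them per gene. Picard (version 1.124) and HTSeq (version 0.5.3) stand in the submitters' processing notes. The deposited values are scaled counts, a signal made by the authors with DESeq, in which a library's reads are divided by its size factor. How reads on overlapping or near-identical genes, or on the other strand, were counted is not given in the sources used here.

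All value columns were used, and column names that quote the library in a title fixed the sample. Dividing by the smallest step of a library returned whole reads for 100% of values (tolerance 0.01), and a library held from 34188755 to 39501874 of these reads. Their precision covers counting alone, as no molecular identifiers were used.

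Groups were compared with limma (version 3.58.1, in R 4.3.3) on log2 values with a pseudocount of 1. Strain was the single term, the 6 libraries entered together, the variance followed the mean, and p-values were adjusted over 6277 genes. A minimum sum of 10 removed 0 genes. The difference of replicate 2 from replicate 1, across genes, correlated between strains (r = 0.547, 0.586 and 0.459). The labels number the replicates in each strain and do not say what replicates of 1 number share. Because of the correlation, libraries of 1 number were read as pairs, and the blocked fit stands beside results that it changes. Recovered reads were tested with edgeR (version 4.0.16) in both designs and with DESeq2 (version 1.42.0). Alternatives were pseudocounts of 0.5 and 10, a minimum mean of 10, equal totals or upper quartiles, no variance trend, 4 libraries per fit, each library left out, and frames free of overlap. The fits were tested on simulated data. Copies of the frames in RefSeq were sought with blastn (identity of 85% over 50% of the length).

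The rule for named frames took those called without the block (0), for each mutant the 6 largest rises and 6 largest falls called with it whose libraries did not overlap and whose higher strain averaged 50 scaled counts or more, the 6 highest per kilobase, in each of the role lists the 2 highest and the 2 most changed in rrp6Δ, and RPL36B, in all 31. Members and role lists (74 genes) were chosen with earlier results of these data known.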

Additional observations from a re-analysis of the deposited data

How the results depend on the processing

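The count of frames called in rrp6Δ against WT was 0 in the main limma fit, 30 with the replicate block (30 in edgeR with it), 17 in DESeq2, 2 without the variance trend and 1 after rescaling to the same total. In Rrp6 exo- against WT it was 0, 29 with the replicate block (26 in edgeR with it), 15 in DESeq2, 2 without the trend, 2 at the same total and 1 at the same upper quartile. Between the mutants it was 0, and 1 in DESeq2. Libraries were left out only in the fit without the block, which called 0 frames with every library in. The fit with the block was not repeated in this way, so how its calls depend on single libraries was not tested. Of the 20 values of named frames tested with the block, 20 passed in limma with it, as the rule that named them asks, and 0 without it.

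The median log2 fold change of the frames in rrp6Δ, 0.22, was 0.13 with a minimum mean of 10, 0.36 at the same total and 0.075 over the 164 frames placed by RefSeq with no overlap, and in Rrp6 exo-, 0.15, it was 0.021 over those frames, which leave out all 115 frames that RefSeq lacks. Leaving out a library gave 0.18 to 0.27, 0.09 to 0.22, and 0.01 to 0.08 between the mutants. The same total raised the median of all genes to 0.16 and 0.12, and the frames' medians stayed above it by 0.20 and 0.13. Of 20 values of named frames, 0 changed sign under any alternative run. Of the 291 frames, 73 had a mean under 10 scaled counts, and each strain had 2 libraries.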
